A study of Homo sapiens with 4 samples.

Results

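Mature miRNAs that were abundant in the colorectal cancer cell line HCT116 and nearly missing from the colorectal cancer cell line RKO are described here in 4 small RNA libraries. The members are hsa-miR-9-5p, hsa-miR-9-3p, hsa-miR-204-5p, hsa-miR-218-5p and hsa-miR-375-3p, 5 of the 1474 miRNAs with at least 1 count in any library. They were chosen by their measured values in the parental libraries: a minimum of 1000 counts for HCT116, less than 1% of the HCT116 level for RKO, and no membership of the miR-200 family. The libraries came from parental HCT116, its acquired radioresistant derivative HCT116-R, parental RKO and its acquired radioresistant derivative RKO-R, with 1 library per line. The resistant lines had been exposed repeatedly to 4 Gy up to a total of 40 Gy and then grown for at least 3 weeks without irradiation, while the parental lines were not irradiated. No source used here says whether a resistant line was a single clone, and the 1 culture of each line has no replicate. The question of the study was which miRNAs differ between radioresistant and parental cells.

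MiRNAs guide Argonaute proteins to messenger RNAs, mainly through the seed, which is bases 2 to 8 of the mature strand, and the bound messages are repressed. Of the 4 miRNA families described here, miR-9, miR-204 and miR-218 are best known outside the colon. MiR-9 is a miRNA of neural progenitors and neurons and is unusual in that both arms of its hairpin are used in the brain. MiR-204 is abundant in the retinal pigment epithelium and other epithelia of the eye, miR-218 in motor neurons, and miR-375 in pancreatic islets and in endocrine cells of the gut.

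The mature sequences show which members could act on shared targets, since miRNAs with one seed recognize the same sites. All 5 members were matched by name to RefSeq (GRCh38.p14), and the sequences are written 5′ to 3′ with the seed in capitals. MiR-211-5p is printed below them because it was the only other miRNA of the reference with a member's seed.
hsa-miR-9-5p: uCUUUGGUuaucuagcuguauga
hsa-miR-9-3p: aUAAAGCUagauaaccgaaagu
hsa-miR-204-5p: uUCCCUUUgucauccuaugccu
hsa-miR-218-5p: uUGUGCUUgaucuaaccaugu
hsa-miR-375-3p: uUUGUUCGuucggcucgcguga
hsa-miR-211-5p: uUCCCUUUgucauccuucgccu
The 5 members have 5 different seeds, so none of them shares seed-matched sites with another. MiR-204-5p and miR-211-5p have one seed and differ at 2 of 22 positions, A17U and U18C, counted from the 5′ end with the base of miR-204-5p first. For the other members the reference holds no miRNA with the same seed.

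MiR-9 is encoded 3 times in the genome, and the hairpins are shown because their arms are identical and their counts cannot be divided between loci. Capitals mark miR-9-5p, on the left, and miR-9-3p, on the right.
MIR9-1: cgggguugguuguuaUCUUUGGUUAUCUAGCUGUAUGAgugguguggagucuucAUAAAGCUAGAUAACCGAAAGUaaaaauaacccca
MIR9-2: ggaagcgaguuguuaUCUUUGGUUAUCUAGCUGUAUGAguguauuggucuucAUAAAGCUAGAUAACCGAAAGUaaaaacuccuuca
MIR9-3: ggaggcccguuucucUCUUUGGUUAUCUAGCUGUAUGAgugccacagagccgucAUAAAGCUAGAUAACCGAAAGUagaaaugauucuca
In GRCh38 coordinates and by GENCODE release 29, MIR9-1 (chr1:156420341-156420429, minus strand) falls within an intron of C1orf61. MIR9-2 (chr5:88666853-88666939, minus strand) is covered by an exon of LINC00461, a long non-coding RNA, and MIR9-3 (chr15:89368017-89368106, plus strand) is intronic to its host gene MIR9-3HG. MIR204 (chr9:70809975-70810084, minus strand) is intronic to TRPM3, which encodes a cation channel. MiR-218-5p has 2 loci, each intronic to a gene for a secreted axon guidance protein, MIR218-1 (chr4:20528275-20528384, plus strand) to SLIT2 and MIR218-2 (chr5:168768146-168768255, minus strand) to SLIT3. MIR375 (chr2:219001645-219001708, minus strand) is intergenic. At these 7 loci no other mature miRNA of the reference overlaps a member on either strand.

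The library totals ranged from 6818497 to 7140460 counts, and the limit set by 3 counts lay between 0.420 and 0.440 CPM (counts scaled by the library total). Intervals below are exact 95% intervals and cover counting error only. As a check of tissue, 8 of 9 miRNAs of colon epithelium had at least 10 counts in every library, and the ninth, miR-215-5p, had 3 counts in HCT116-R and 0 in the others. Their summed level was 63649 and 59230 CPM in HCT116 and HCT116-R, and 10538 and 12242 CPM in RKO and RKO-R. Of these sums, miR-200c-3p held 42717 and 42008 CPM in the HCT116 lines, but 90.9 and 206 CPM in the RKO lines. This miRNA met the count and percentage limits and was left out of the members as part of the miR-200 family. Most of the difference between the sums thus comes from a miRNA with the same contrast that chose the members. The lists for leukocytes, erythroid cells and striated muscle summed to between 0.840 and 29.6 CPM in each library. The list for fibroblasts and smooth muscle (miR-143-3p, miR-145-5p and miR-199a-5p) summed to 336.5 CPM in HCT116, 157 CPM in HCT116-R, 7.14 CPM in RKO and 88.8 CPM in RKO-R, and none of the 3 was at 0 outside RKO. In these bulk libraries, fewer cells holding a miRNA and less of it per cell cannot be told apart.

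Together the 5 members held 34809 counts in HCT116 and 22449 in HCT116-R, but 109 in RKO and 230 in RKO-R. These are 5102, 3292, 15.3 and 33.3 CPM. MiR-375-3p made up most of the sum in HCT116. In read counts, which were not corrected for differences in adapter ligation between miRNAs, the order in HCT116 was miR-375-3p, miR-9-5p, miR-9-3p, miR-204-5p and miR-218-5p, and the last 2 did not differ beyond their intervals. MiR-375-3p ranked 42 among the 1105 miRNAs listed in HCT116, and miR-218-5p ranked 110. In HCT116-R the order was the same except that miR-204-5p came last. In RKO miR-375-3p was again the highest, and the intervals of the other 4 overlapped.

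**Figure D1:**
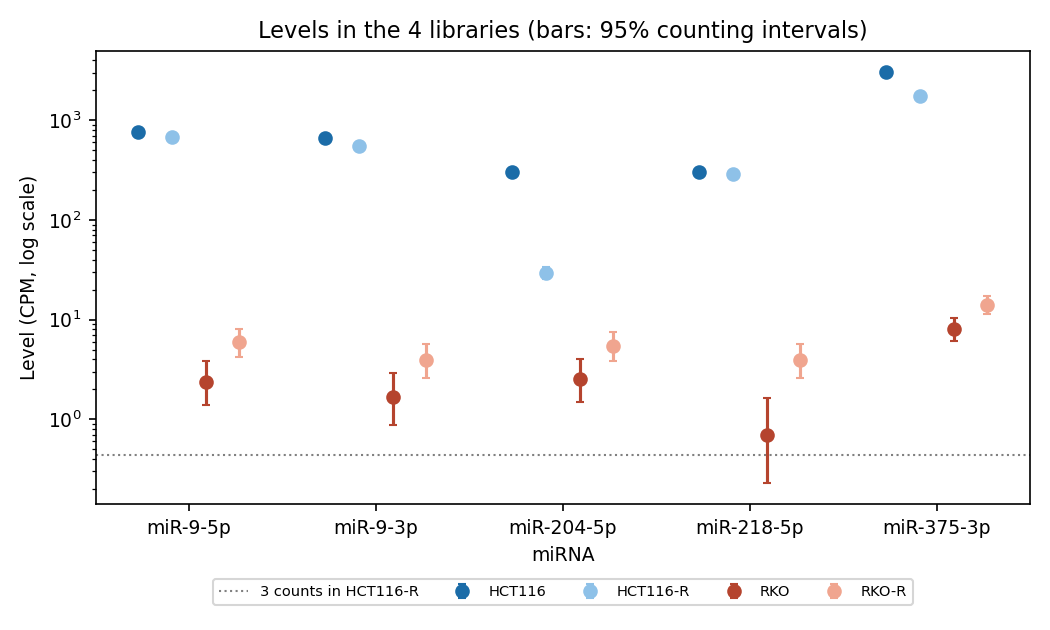
Level of each member in CPM (log scale) in the libraries of HCT116, HCT116-R, RKO and RKO-R, with 95% counting intervals and a dotted line at 3 counts. HCT116 and HCT116-R lie above both RKO libraries for every member, and the 2 groups come closest for miR-204-5p, where HCT116-R stood at 29.5 CPM and RKO-R at 5.50 CPM.

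In the parental libraries, all 5 members stood out as the rule requires, and these values are a description without a test. MiR-218-5p had the smallest share, with 300.9 CPM (288 to 314) in HCT116 and 0.700 CPM (0.227 to 1.63) in RKO, which was 0.233% of the HCT116 level (0.0755 to 0.544). MiR-9-3p had 672 CPM in HCT116 and 1.68 CPM in RKO, or 0.250% (0.129 to 0.437). MiR-375-3p had 3060 CPM and 7.98 CPM, or 0.261% (0.198 to 0.338). These 3 shares have overlapping intervals. MiR-9-5p had 765 CPM in HCT116 and 2.38 CPM in RKO, or 0.311% (0.181 to 0.499), and miR-204-5p had 304 CPM (291 to 318) and 2.52 CPM (1.49 to 3.98), or 0.829% (0.490 to 1.31). MiR-204-5p was thus the member nearest to the limit.

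The limits took 9 of the 142 miRNAs that reached 1000 counts in the HCT116 library, namely the 5 members and 4 miRNAs of the miR-200 family, both arms of miR-200c and of miR-141. Just inside the limit were miR-9-5p, miR-141-5p (0.348%) and miR-204-5p. Just outside it were miR-3613-5p with 1.51%, miR-143-3p with 2.81% and miR-584-5p with 3.69%. Below the count minimum, the most abundant miRNAs to meet the percentage limit were miR-424-5p, miR-205-5p and miR-342-3p. HCT116 held 875, 795 and 690 counts of them, and RKO held 0. Of the 9 miRNAs taken, 8 would also be taken at a limit of 0.5%. Their shares in RKO lay between 0.213% (miR-200c-3p, 291469 counts in HCT116 and 649 in RKO) and 0.348% (miR-141-5p, 1372 and 5). The shares were thus alike over a wide range of HCT116 counts, and whether the RKO counts came from RKO cells was not tested.

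The libraries of HCT116-R and RKO-R were not used in choosing the members, and they show how far the difference between the lines held in cells that had been through irradiation. All 5 members were higher in HCT116-R than in RKO-R, and all 5 were called in that direction. Among the 1333 miRNAs tested in this comparison, 16% were called higher in HCT116-R. The test was the exact test of edgeR with TMM scaling and a biological coefficient of variation (BCV) fixed at 0.2. The methods of the study name edgeR and this BCV, and the exact test and TMM were chosen here. A miRNA was called at a Benjamini-Hochberg adjusted p under 0.05 over all miRNAs tested. With 1 library per line the test compares libraries, not conditions, and the standard errors (SE) follow from that assumed BCV. The resistant lines were derived from the parental lines, so this is not an independent pair of lines.

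MiR-9, miR-375 and miR-218 differed between the resistant libraries by 74.5-fold (51.1 to 113, miR-218-5p) to 141-fold (96.7 to 214, miR-9-3p) by library totals. MiR-9-3p had 550.3 CPM (533 to 568) in HCT116-R and 3.91 CPM (2.57 to 5.68) in RKO-R, with log2 fold change 6.80 (SE 0.49, adjusted p = 5.94e-32). MiR-9-5p had 685 CPM (666 to 705) and 5.93 CPM (4.26 to 8.05), with log2 fold change 6.52 (SE 0.47, adjusted p = 3.79e-31). Both arms of the neural miR-9 thus differed between the lines by a similar amount. MiR-375-3p had 1736 CPM (1705 to 1768) and 14.0 CPM (11.4 to 17.1), with log2 fold change 6.62 (SE 0.43, adjusted p = 4.16e-33). MiR-218-5p had 291 CPM (279 to 304) and 3.91 CPM (2.57 to 5.68), with log2 fold change 5.88 (SE 0.49, adjusted p = 1.47e-25). In RKO-R, miR-9-3p and miR-218-5p stood at the same 27 counts.

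MiR-204-5p was the exception in size. It had 29.5 CPM (25.5 to 33.9) in HCT116-R and 5.50 CPM (3.89 to 7.55) in RKO-R, which was 5.36-fold (3.78 to 7.80) by library totals and a log2 fold change of 2.09 in the fit (SE 0.48, adjusted p = 0.000188). This call was lost at a BCV of 0.4 (adjusted p = 0.152). The level in RKO-R as a share of that in HCT116-R was 18.7% for miR-204-5p (12.8 to 26.5), against 1.34% for miR-218-5p (0.882 to 1.96), 0.865% for miR-9-5p (0.620 to 1.18), 0.808% for miR-375-3p (0.655 to 0.987) and 0.710% for miR-9-3p (0.467 to 1.03). With the same limits of 1000 counts and 1% applied to the resistant libraries, 3 of the 5 members would still be taken by library totals, both arms of miR-9 and miR-375-3p. With DESeq2 size factors in place of library totals, miR-9-5p stood at 1.13%, miR-375-3p at 1.06% and miR-9-3p at 0.927%, so that of these 3 miR-9-3p alone stayed under 1%. MiR-218-5p lay above the percentage limit, and miR-204-5p failed both limits. The intervals of miR-218-5p and of both arms of miR-9 include 1%, so their side of the limit is not settled. The name HCT116-restricted therefore describes miR-204-5p in the parental libraries and not in the resistant ones.

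**Figure D2:**
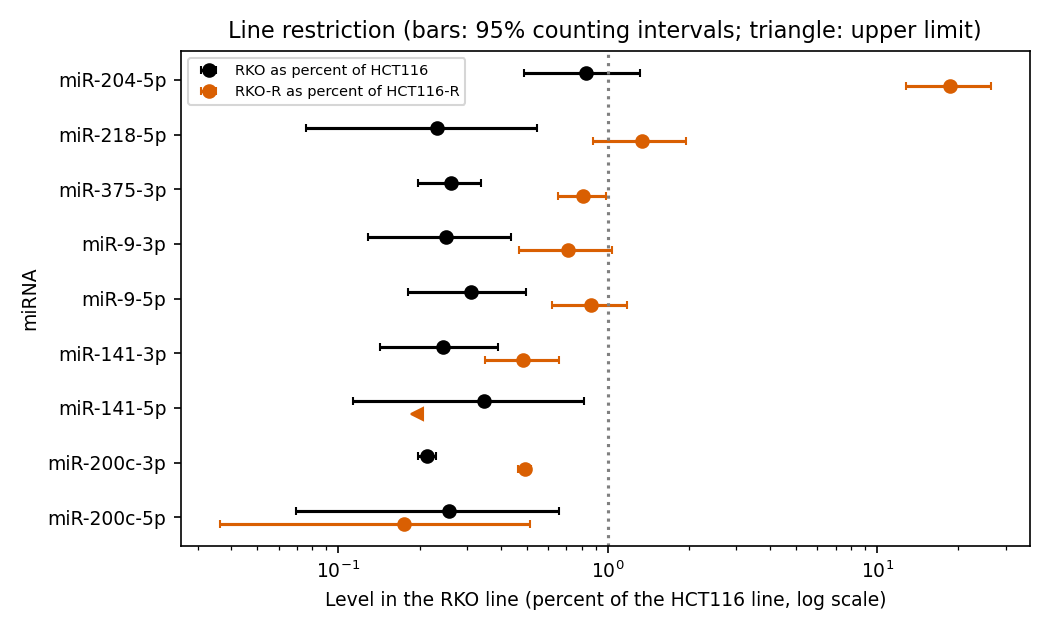
Level in the RKO line as a percent of the level in the HCT116 line (log scale) for the 9 miRNAs taken by the limits, in the parental libraries (black) and the resistant libraries (orange), with 95% counting intervals and a dotted line at 1%. All 5 members moved to the right in the resistant pair, miR-204-5p the furthest, to 18.7%, and the triangle marks the upper limit for miR-141-5p, which had 0 counts in RKO-R.

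Beside them, the 4 miR-200 family miRNAs all met the same limits in the resistant libraries, so that by library totals 7 miRNAs met them in all. MiR-200c-3p had 286432 counts in HCT116-R and 1426 in RKO-R, which was 0.491%, and miR-141-3p had 8320 and 41, which was 0.486%. Their passenger arms had few counts in RKO-R, with 3 for miR-200c-5p and 0 for miR-141-5p.

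In HCT116-R against HCT116, 1 of the 5 members was called, miR-204-5p, which was lower. Among the 1322 miRNAs tested, 1.66% were called lower. The other members gave log2 fold changes between -0.84 and -0.07 without being called. The median over the members was -0.31, beside 0.07 over all miRNAs tested. HCT116 was one of the libraries that chose the members, through a minimum count, so a lean to lower values in HCT116-R can come from the choice itself.

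MiR-204-5p fell from 2076 counts to 201 between the parental and the resistant library. These are 304 CPM (291 to 318) and 29.5 CPM (25.5 to 33.9), so that 9.69% of the parental level was left (8.34 to 11.2). In the fit this was -3.39 on the log2 scale (SE 0.42, adjusted p = 1.67e-11), and it was called under all 9 alternatives. Its rank went from 109 of 1105 listed miRNAs to 231 of 1198. By size of log2 fold change it was the 4th largest fall of the 142 miRNAs that reached 1000 counts in HCT116. In the same pair the mesenchymal miR-199a-5p fell from 256 to 19 counts (adjusted p = 1.82e-10) by the exact test of edgeR. The others of its list were not called by that test, miR-143-3p with 1733 and 829 counts (adjusted p = 0.165) and miR-145-5p with 307 and 221 (adjusted p = 0.896). Of the 4 leukocyte miRNAs, miR-223-3p fell from 54 to 6 counts (adjusted p = 0.000187 by the same test), while miR-142-3p had 26 and 66, miR-142-5p 17 and 26, and miR-150-5p 27 and 37. The leukocyte list summed to 18.2 CPM in HCT116 and 19.8 CPM in HCT116-R. The sum of the fibroblast and smooth muscle list was 336.5 CPM and 157 CPM, and the part of these miRNAs in the fall of miR-204-5p was not tested.

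**Figure D3:**
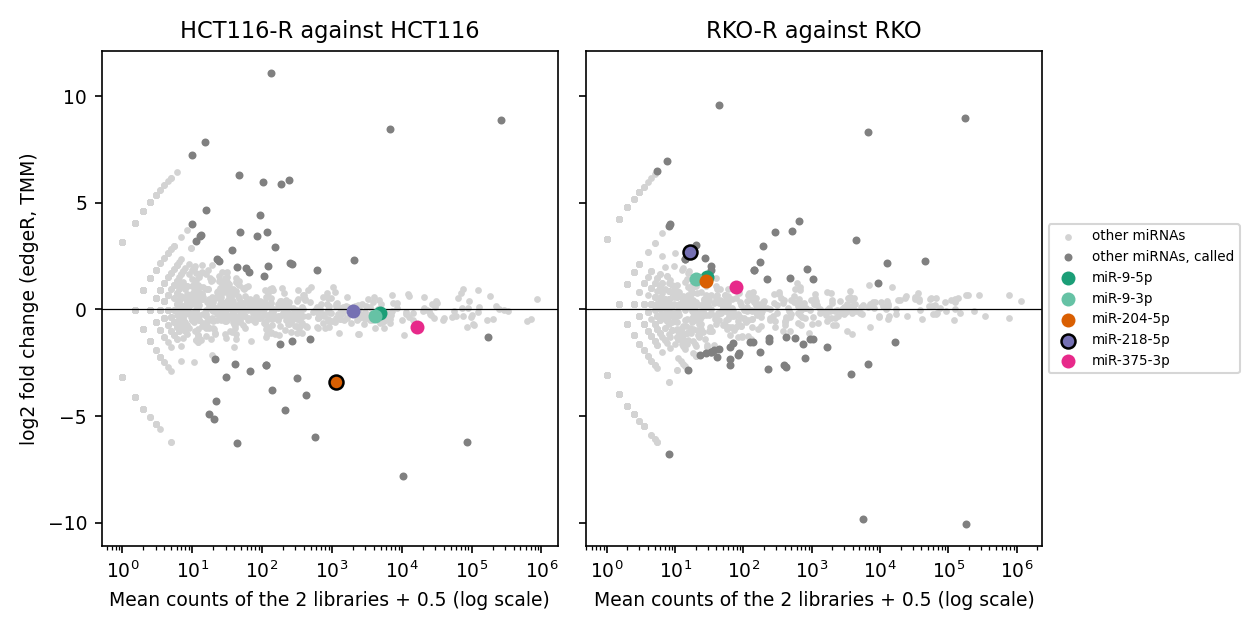
Log2 fold change of each miRNA in HCT116-R against HCT116 (left) and RKO-R against RKO (right), plotted over the mean counts of the pair plus 0.5 (log scale), with members in colour and called members outlined in black. MiR-204-5p lies at -3.39 on the left, apart from the other members, and on the right all 5 members lie above 0 at low counts, with miR-218-5p called.

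MiR-211-5p, the seed relative made from an intron of TRPM1, did not pass the test in the same pair. It had 55 counts in HCT116 (8.06 CPM, 6.07 to 10.5) and 40 in HCT116-R (5.87 CPM, 4.19 to 7.99), with log2 fold change -0.48 (SE 0.51, adjusted p = 1). Of the counts with the seed UCCCUUU, miR-211-5p held 2.58% in HCT116 (1.95 to 3.35) and 16.6% in HCT116-R (12.1 to 21.9). Summed over both miRNAs, the seed stood at 312 CPM in HCT116, 35.4 CPM in HCT116-R, 2.52 CPM in RKO and 5.64 CPM in RKO-R. MiR-211-5p was not counted in RKO (0) and had 1 count in RKO-R, so it too was at or near the limit in the RKO lines, and HCT116-R was called above RKO-R (40.6-fold by library totals, counting interval 6.87 to 1641, adjusted p = 8.43e-06 by the exact test of edgeR).

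MiR-375-3p had the next lowest log2 fold change of the members. It stood at 3060 CPM (3018 to 3101) in HCT116 and 1736 CPM (1705 to 1768) in HCT116-R, a ratio of 0.568 (0.555 to 0.580). The log2 fold change of -0.84 (SE 0.41) was not called (adjusted p = 0.396), and it was called only with a BCV of 0.1 (adjusted p = 0.000929). The counting interval is narrow beside the assumed spread between libraries, so whether this difference exceeds the spread between cultures cannot be settled with 1 library per line.

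Both arms of miR-9 and miR-218-5p lay close to their parental levels. MiR-9-5p stood at 765 CPM (744 to 786) and 685 CPM (666 to 705), with log2 fold change -0.18 (SE 0.41, adjusted p = 1). MiR-9-3p stood at 672 CPM (653 to 692) and 550.3 CPM (533 to 568), with log2 fold change -0.31 (SE 0.41, adjusted p = 1). MiR-218-5p stood at 300.9 CPM (288 to 314) and 291 CPM (279 to 304), with log2 fold change -0.07 (SE 0.41, adjusted p = 1), and it held rank 110 in both libraries. For miR-218-5p even the counting intervals of the 2 libraries overlapped.

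In RKO-R against RKO, all 5 members were at higher CPM in RKO-R, and 1 of them, miR-218-5p, was called higher. Among the 1155 miRNAs tested, 2.51% were called higher. The median log2 fold change of the members was 1.44, beside 0.02 over all miRNAs tested. RKO was the other library that chose the members, through a low level, so a lean to higher values in RKO-R can come from the choice itself. All members were rare in both libraries, at most 14.0 CPM, and whether these few counts came from RKO cells was not tested.

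MiR-218-5p rose from 5 to 27 counts in RKO-R, or 0.700 CPM (0.227 to 1.63) and 3.91 CPM (2.57 to 5.68), a 5.58-fold difference by library totals (2.12 to 18.6). In the fit this was 2.68 on the log2 scale (SE 0.81, adjusted p = 0.0154), and the call was lost at a BCV of 0.4 (adjusted p = 0.593). MiR-218-5p had the lowest count of the members in RKO, a library that chose them by a low level. Its call is therefore not free of that choice. MiR-9-5p had 17 and 41 counts, with log2 fold change 1.55 (SE 0.58, adjusted p = 0.112). MiR-9-3p had 12 and 27 counts, with log2 fold change 1.44 (SE 0.65, adjusted p = 0.309). Neither arm was called. MiR-204-5p had 18 and 38 counts, with log2 fold change 1.36 (SE 0.58, adjusted p = 0.220), and miR-375-3p had 57 and 97, with log2 fold change 1.05 (SE 0.47, adjusted p = 0.272).

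Even at its highest, the level in RKO-R stayed far under that of parental HCT116. It was 0.459% of the HCT116 level for miR-375-3p (0.372 to 0.560), 0.581% for miR-9-3p (0.383 to 0.847), 0.776% for miR-9-5p (0.556 to 1.05), 1.30% for miR-218-5p (0.853 to 1.89) and 1.81% for miR-204-5p (1.27 to 2.49). The interval of miR-375-3p did not overlap those of miR-218-5p or miR-204-5p. Other miRNAs abundant in HCT116 were higher in the same library. MiR-200c-3p rose from 649 to 1426 counts (log2 fold change 1.42, adjusted p = 0.0241), and the mesenchymal miR-143-3p rose from 51 to 522 counts (log2 fold change 3.64, adjusted p = 1.75e-11). MiR-199a-5p rose from 0 to 86 counts (adjusted p = 3.93e-12, all by the exact test of edgeR), while miR-145-5p had 0 and 6 counts and was not called. In contrast, miR-200c-5p had 4 and 3 counts and miR-141-5p had 5 and 0. Their part in the higher counts of the members was not tested.

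The 2 arms of miR-9 stood close to each other in every library. MiR-9-5p held 53.2% of the miR-9 counts in HCT116 (52.2 to 54.2), 55.5% in HCT116-R (54.4 to 56.5), 58.6% of 29 counts in RKO (38.9 to 76.5) and 60.3% of 68 counts in RKO-R (47.7 to 72.0). The intervals of HCT116 and HCT116-R did not overlap, a difference beyond counting error that has no replicate check, and the intervals of the RKO libraries include both values. For the other members, only 1 arm had more than 1 count. The opposite arms miR-204-3p, miR-218-1-3p and miR-218-2-3p had 0 counts in every library, and miR-375-5p had 1 count, in HCT116-R. The annotation used for counting is not given, so whether it held the arms with 0 counts is unknown. The floor of 3 counts was 0.440 CPM in HCT116.

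**Figure D4:**
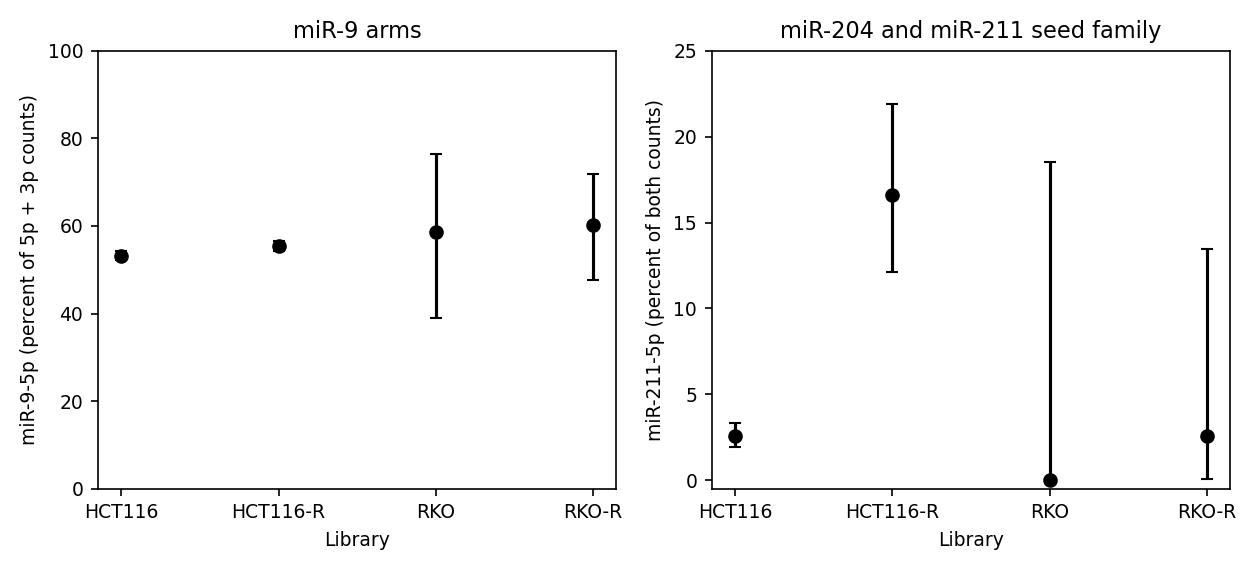
Left, miR-9-5p as a percent of the counts of both miR-9 arms in each library, and right, miR-211-5p as a percent of the counts of miR-204-5p and miR-211-5p, with 95% counting intervals. The miR-9 arms stood between 53.2% and 60.3%, and the share of miR-211-5p was 16.6% in HCT116-R against 2.58% in HCT116.

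In pattern over the libraries, miR-204-5p lay apart from the other members. The measure includes HCT116 and RKO, which chose the members, so closeness among members comes in part from the choice. As the Euclidean distance between log2(CPM + 1) profiles over the 4 libraries, each centred on its mean, both arms of miR-9 were 0.222 apart, and the distances among miR-9, miR-218-5p and miR-375-3p ranged up to 1.23. MiR-204-5p, with its fall in HCT116-R described above, was 3.33 or more from each of the other members. Among 341 other miRNAs that reached 100 counts somewhere, the nearest to miR-204-5p was miR-205-5p (distance 0.677), an epithelial miRNA. It had 795 and 50 counts in the HCT116 lines, parental first, and 0 and 2 in the RKO lines. Its level in HCT116-R was lower by 4.01 on the log2 scale. The nearest miRNAs were picked on these same 4 libraries, so such a fall follows from the choice and is given without a test. The second nearest, miR-497-5p (distance 1.51), had 386 and 141 counts in the HCT116 lines and 9 and 11 counts in the RKO lines. For miR-9-5p, miR-9-3p and miR-218-5p, miR-424-5p was among the 2 nearest, with 875 and 859 counts in the HCT116 pair and 0 and 4 in the RKO pair. MiR-141-3p was among the 2 nearest to both arms of miR-9 and to miR-375-3p. With 4 libraries that differ mainly by line, many HCT116 miRNAs lie near each other in this measure.

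A list of 16 other miRNAs known from neurons and neuroendocrine cells was set beside the members. In HCT116-R against HCT116, 2 of 16 were called lower and 0 higher, beside 1.66% and 2.34% of all miRNAs tested. Those were miR-7-5p, which fell by 6.19 on the log2 scale (SE 0.41) and whose sequence is the reverse complement of miR-3529-3p, so that its counts are uncertain without strand, and miR-129-5p, which fell from 70 to 12 counts (log2 fold change -2.55, SE 0.61, adjusted p = 0.000779 by the exact test of edgeR). In RKO-R against RKO, 1 of 14 tested was called lower, again miR-7-5p, and 0 were called higher. Over all miRNAs of that pair, 3.03% were called lower and 2.51% higher.

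Between the resistant libraries, 6 of the 16 were called higher in HCT116-R and 3 were called higher in RKO-R. Among all miRNAs tested there, 16% were called higher in HCT116-R and 7.2% lower. The 6 include miR-7-5p, whose counts are uncertain without strand. It had 2381 counts in HCT116-R and 284 in RKO-R, but 171920 in HCT116 and 367030 in RKO. Like the members, miR-184 (87 counts in HCT116-R and 4 in RKO-R) and miR-487b-3p (53 and 3) were nearly missing from the RKO lines. The same held for miR-485-5p (40 and 0) and miR-488-3p (10 and 0), and each of these had 0 counts in RKO. MiR-488-3p was also rare in HCT116, with 3 counts. MiR-138-5p was called higher too but was present in both RKO lines, with 101 counts in HCT116-R, 32 in RKO-R and 24 in RKO. The opposite order was seen for miR-153-3p, a neuronal miRNA, with 1494 counts in HCT116-R and 6141 in RKO-R (log2 fold change -2.35, SE 0.41, adjusted p = 7.34e-07 by the exact test of edgeR), and for miR-212-3p and miR-219a-5p. MiR-128-3p, one of the most abundant of the list, had 5849 and 3503 counts and was not called (adjusted p = 0.603). MiR-124-3p, a miRNA of mature neurons, had at most 4 counts in any library.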

How the data were processed

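Small RNA of 18 to 30 nt from 4 cell lines was ligated to adapters carrying unique molecular identifiers, and 1 library of each line was read by BGISEQ-500. The values deposited by the authors are raw counts for each mature miRNA. The submitters' processing notes name Bowtie2 and hg38. The version, the miRNA annotation, the use of strand and the collapsing of identifiers are not given in the sources used here. MiRNAs that a library's table does not list were set to 0 counts, and library totals, from 6818497 to 7140460 counts, scaled counts to CPM. Each comparison used the exact test of edgeR 4.0.16 (R 4.3.3), TMM within the pair and a BCV of 0.2 over every miRNA counted in either library of the pair, adjusted by Benjamini-Hochberg. SE were derived from the counts and that BCV. The median log2 fold change of all miRNAs was 0.02 in the RKO pair with TMM and -0.22 by library totals, and 0.59 and 0.92 between the resistant libraries. HCT116 against RKO chose the members and was not tested. Intervals of levels and shares are Clopper-Pearson, and those of ratios are exact conditional intervals. A fold against 0 counts was taken against 3 counts.

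The members and lists were chosen with earlier results of these data known. Named were the members, other arms of their hairpins, seed relatives, the 2 miRNAs nearest in pattern to each member, miRNAs near the limits, and listed miRNAs that were called or abundant. MiR-124-3p, miR-223-3p, miR-342-3p and the marker miRNAs named with values were chosen after their values were seen. The tests were tried on simulated data first. Alternatives were other scalings, filters on low counts, BCV values and tests, with DESeq2 1.42.0. Sequences came from RefSeq (GRCh38.p14) and overlaps from GENCODE release 29. Other computations ran in Python 3.11.15 with scipy 1.17.1, pandas 2.3.3 and numpy 2.4.6, and figures were drawn in matplotlib 3.10.9.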

Additional observations from a re-analysis of the deposited data

Results flagged for a closer look

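Of the 5 members, 4 had a lower level in HCT116-R than in HCT116 and a higher level in RKO-R than in RKO, with counting intervals that left out a ratio of 1 in both pairs. The log2 fold change of the HCT116 pair minus that of the RKO pair was -1.73 for miR-9-5p, -1.75 for miR-9-3p, -4.74 for miR-204-5p and -1.89 for miR-375-3p. These differences were not tested, because they contain the contrast of HCT116 and RKO that chose the members, and of the changes behind them only the fall of miR-204-5p in HCT116-R was called. Each direction rests on 1 library per line. The share of all miRNAs that meet the same condition was not computed, and the choice of the members can lean to both directions. The count is therefore not a result about the members.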

How the results depend on the processing

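No paired analysis was possible because each line had 1 library and the labels carry no replicate numbers. Of 135 recomputed member results, 129 kept their direction and their side of the threshold and 0 changed direction. The other 6 moved with the assumed BCV alone. At 0.4, the calls of miR-218-5p in RKO-R and of miR-204-5p between the resistant libraries were lost. At 0.1, miR-375-3p was called in both pairs, and miR-9-5p and miR-204-5p were called in RKO-R. For miR-204-5p in HCT116-R, the log2 fold change ranged from -3.47 to -3.36 (adjusted p from 9.65e-43 to 0.0164). The numbers of miRNAs called in the HCT116 pair, the RKO pair and between the resistant libraries were 53, 64 and 309, and 24, 9 and 140 at a BCV of 0.4. At a BCV of 0.1, 154 and 148 were called in the pairs. Without TMM, 27.0% of the calls in the RKO pair were higher in RKO-R, against 45.3% with it and 62.0% with DESeq2 size factors. The median of all log2 fold changes in that pair was -0.22, 0.02 and 0.14. With DESeq2 size factors, the levels of miR-375-3p and miR-9-5p in RKO-R were 1.06% and 1.13% of those in HCT116-R, above the 1% limit, so 2 of the 3 members that met the limits in the resistant libraries no longer did. A count minimum of 500 would have taken 14 miRNAs in place of 9. Low counts limit the results most in the RKO libraries, where each member had 97 counts or fewer. The totals of RKO (7140460) and RKO-R (6913146) were above those of both HCT116 libraries.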
